A study of Mus musculus with 61 samples.

Results

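Kinesins are the motor proteins that move along microtubules or take them apart. Here their genes are followed through fertilisation and cleavage in the mouse, and in embryos that differ in Klf17, the gene of a zinc-finger transcription factor of the Krüppel-like family. The members were chosen by gene symbol, by a rule that uses no measured value, with earlier results of these data known. It took symbols that start with Kif and a digit, plus Kifc1, Kifc2 and Kifc3, and dropped pseudogene symbols containing -ps. The rule found 42 of the 24551 genes in the table of windows after fertilisation. After the filter on low counts 36 members were tested there, among 16234 genes. The same 42 symbols were in the genotype table, where 37 were tested among 16694 genes. Of the 42, 41 code for motors, and the other one, Kif1bp, codes for the KIF1-binding protein, which is not a motor.

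Transcripts were labelled for 6 h with 2 mM 4-thiouridine (4SU), a uridine analogue taken up into new RNA, before polyadenylated RNA was extracted, treated with iodoacetamide and read through an oligo-dT-primed library of the Smart-seq2 type. The first table held wild-type MII oocytes, which are arrested in metaphase of the second meiosis, and wild-type embryos made by in vitro fertilisation and labelled in 9 windows named by hours post insemination (hpi): 0-6hpi, 6-12hpi, 12-18hpi, 18-24hpi, 24-30hpi, 30-36hpi, 48-54hpi, 70-76hpi and 90-96hpi. Each of these 10 groups had 3 libraries, each from 10 oocytes or embryos. The second table held embryos of the stage labelled M2C: 3 libraries each of wild-type controls (ctrl), of Klf17 KO and of Klf17 maternal KO (mKO), and 2 of Klf17 paternal KO (pKO). The labels used here give neither the strain, nor how the deletion was made, nor whether replicates came from separate collections, and the p-values therefore speak only of how far these libraries scatter, which may be technical scatter. Whether the counts hold every read or only reads with T-to-C changes is not given in the sources used here, and the levels may therefore include RNA made before the label was added.

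A kinesin couples ATP hydrolysis in its motor domain to steps along a microtubule or, in kinesin-13, to removal of tubulin from its ends. Mitotic kinesins build the spindle, move chromosomes and organise the midzone between separating chromosomes, where the cleavage furrow forms. Transport kinesins carry vesicles, organelles and RNA along the tracks that remain between divisions, and a further group works at cilia and centrioles. The oocyte is transcriptionally silent at MII and lives on stored RNA, and the embryo divides several times before the blastocyst, starting on the stored supply and moving to its own transcripts after the genome is switched on.

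Promoter sequences from RefSeq (GRCm38.p6; 250 bases before to 50 bases after an annotated start) were present for 33 of the 42 members. The cell cycle genes homology region (CHR), a short element known from genes transcribed late in the cell cycle, was searched on both strands as TTTGAA or TTCGAA, the CCAAT box as CCAAT, and the box bound by Krüppel-like factors as CACCC. No motif contains another, although neighbouring matches can share letters at their ends. The first listed start of each gene was counted. At that start a CHR stood in the windows of 10 of 11 mitotic kinesins (90.9%), 0 of 11 transport kinesins and 2 of 7 cilium and centriole kinesins, against 19.4% of 27025 genes with such windows. CCAAT stood in 7 of 11 mitotic windows (63.6%) and 3 of 11 transport windows (27.3%), against 37.9% of all genes. CACCC stood in 6 of 11 mitotic windows (54.5%), 10 of 11 transport windows (90.9%) and 56.7% of all genes. A further listed start of Kif1a, a transport kinesin, held 1 CHR, at base -44 from that start. A match is a string of letters and not a measured binding site. The 6 windows printed here are of members whose levels are described below in most detail and show windows with and without a CHR; each reads 5′ to 3′ on the gene's strand, with CHR and CCAAT matches on either strand in capitals.
Kif23, chr9:61946750-61947049, minus strand: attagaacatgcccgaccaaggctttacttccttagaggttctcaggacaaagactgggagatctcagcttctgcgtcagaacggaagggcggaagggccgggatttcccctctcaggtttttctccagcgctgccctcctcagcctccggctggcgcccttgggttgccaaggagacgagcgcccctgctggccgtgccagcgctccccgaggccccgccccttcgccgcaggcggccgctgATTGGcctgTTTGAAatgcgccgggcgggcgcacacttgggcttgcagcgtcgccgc
Kif11, chr19:37376132-37376431, plus strand: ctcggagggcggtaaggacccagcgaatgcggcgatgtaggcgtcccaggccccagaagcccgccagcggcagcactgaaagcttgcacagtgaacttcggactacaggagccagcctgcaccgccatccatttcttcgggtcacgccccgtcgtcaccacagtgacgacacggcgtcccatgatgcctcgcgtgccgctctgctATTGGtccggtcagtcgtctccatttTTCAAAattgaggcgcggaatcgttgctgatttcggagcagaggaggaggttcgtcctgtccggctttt
Kif22, chr7:127042371-127042670, minus strand: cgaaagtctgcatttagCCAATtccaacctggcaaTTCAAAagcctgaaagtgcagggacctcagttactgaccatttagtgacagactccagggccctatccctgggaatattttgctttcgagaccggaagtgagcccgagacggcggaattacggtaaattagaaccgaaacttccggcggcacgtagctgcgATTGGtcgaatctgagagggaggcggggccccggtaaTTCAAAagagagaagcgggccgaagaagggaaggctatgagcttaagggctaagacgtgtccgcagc
Kif18a, chr2:109280488-109280787, plus strand: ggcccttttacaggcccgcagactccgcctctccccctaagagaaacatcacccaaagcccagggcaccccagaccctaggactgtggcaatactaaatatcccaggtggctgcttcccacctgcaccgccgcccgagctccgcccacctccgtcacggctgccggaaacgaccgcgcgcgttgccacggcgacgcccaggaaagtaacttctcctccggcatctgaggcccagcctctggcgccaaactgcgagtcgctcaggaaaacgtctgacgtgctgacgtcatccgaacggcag
Kif3c, chr12:3364882-3365181, plus strand: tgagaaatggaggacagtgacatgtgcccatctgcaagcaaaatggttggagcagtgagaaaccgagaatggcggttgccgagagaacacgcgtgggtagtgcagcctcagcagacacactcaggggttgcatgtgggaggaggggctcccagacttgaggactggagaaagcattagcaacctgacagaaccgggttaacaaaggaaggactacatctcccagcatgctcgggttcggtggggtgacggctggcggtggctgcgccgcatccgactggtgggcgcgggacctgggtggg
Kif17, chr4:138262001-138262300, plus strand: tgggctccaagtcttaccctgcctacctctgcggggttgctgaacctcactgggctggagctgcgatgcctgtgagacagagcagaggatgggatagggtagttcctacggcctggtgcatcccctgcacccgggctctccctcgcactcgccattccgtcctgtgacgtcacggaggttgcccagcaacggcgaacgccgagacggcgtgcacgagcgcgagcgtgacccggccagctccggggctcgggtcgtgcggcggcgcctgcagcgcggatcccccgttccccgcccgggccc
Of the 11 mitotic kinesins with a window, Kif18a is the one without a CHR, and the windows of the transport kinesins Kif3c and Kif17 hold none either.

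Libraries held 7395193 to 13301570 reads in the 10 groups after fertilisation and 14080264 to 23018252 in the genotypes. Levels are CPM, read counts set against the library's total after edgeR's TMM scaling. Means stand with their SD (n = 3 libraries, unless stated). Tests are edgeR's quasi-likelihood tests with Benjamini-Hochberg adjustment over all genes tested, and a gene is called at an adjusted p below 0.05. In RNA of whole embryos, fewer cells of a type and less RNA per cell cannot be told apart. Nor can a change in amount be told apart from a change in the share of a gene's RNA that carries a poly(A) tail. The samples labelled as oocytes carried the oocyte markers: the summed level of Zp3, Gdf9, Bmp15, Zar1, Nlrp5 and Padi6 was 8081 to 8295 CPM in MII oocytes and 3.77 to 55.3 CPM at 90-96hpi. Of 9 cumulus cell markers in the table, 6 were at 0 in MII oocytes, and their summed level was 0.994 to 3.08 CPM there. Counting is not stated to use strand, so reads of Kif20a and its neighbours Brd8 and Cdc23, of Kif18a and Mettl15, of Kif2a and Dimt1, and of Kif3a and A430108G06Rik cannot be told apart where the genes overlap. Kif22 and Kif4 have pseudogene copies and Kifc1 has the near copy Kifc5b, so their counts are uncertain to that extent.

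In all, 6 members were too low to test after fertilisation. Kif1a had 94 reads in all 30 libraries together, Kif26a 38, Kif7 28, Kif19a 15, Kif2b 10 and Kif12 3. All the rest were measured, and 35 of the 36 tested members differed over the 10 groups by edgeR's F test, as did 98.4% of all genes tested. The exception was Kif27, a relative of the ciliary kinesin Kif7 (3.24 CPM at its highest, adjusted p = 0.0647).

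After TMM scaling, the members' summed level was highest in MII oocytes. Library totals were multiplied by TMM factors of 0.784 to 0.831 in MII oocytes and 1.26 to 1.33 at 30-36hpi. The gap between these groups therefore depends on the scaling, and sums under total count scaling were not computed. The members' summed level was 5508 to 6006 CPM in the 3 MII libraries, 2804 to 2985 at 18-24hpi, 3516 to 3674 at 30-36hpi and 1345 to 1423 at 90-96hpi. The 12 mitotic kinesins made up most of it, with 4572 to 4999 CPM in MII oocytes, 1904 to 2049.7 at 18-24hpi, 2640.2 to 2794 at 30-36hpi and 944 to 990.1 at 90-96hpi. The 30-36hpi libraries therefore stood above those of 18-24hpi in the mitotic sum, without overlap. The 17 transport kinesins summed to 622 to 745 CPM in MII oocytes, 678 to 708 at 30-36hpi and at most 358 at 90-96hpi. The 8 cilium and centriole kinesins summed to 241 to 267 CPM in MII oocytes, 246 to 264 at 18-24hpi and 37.3 to 62 at 90-96hpi. In these lists the named middle group lay within the range of MII oocytes, unlike in the mitotic list. Sorted by the group with the highest mean, 9 of 36 tested members (25%) peaked at 30-36hpi, where 9.01% of all genes tested did. Another 6 (16.7%; 13.8% of all genes) peaked in MII oocytes, 4 each at 18-24hpi, 48-54hpi and 90-96hpi, and 0 at 70-76hpi, where 10.5% of all genes had their highest mean.

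**Figure D1:**
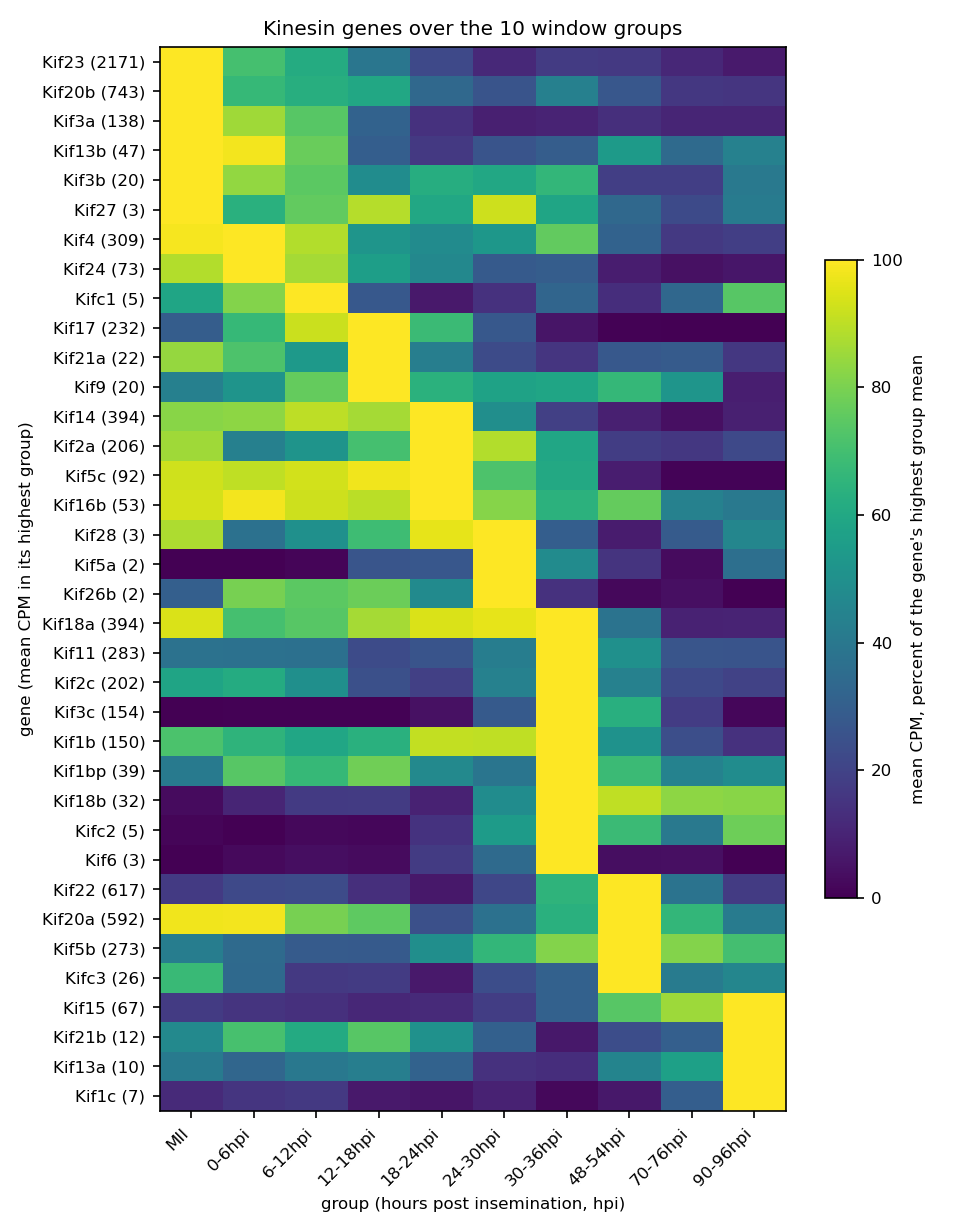
Mean CPM of each tested kinesin gene in the 10 groups, scaled to the gene's own highest group, with genes ordered by that group and the highest mean printed beside each gene. Early peaks include Kif23 and Kif20b in MII oocytes, 9 genes have their highest mean at 30-36hpi, and none has it at 70-76hpi.

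Per kilobase of deposited gene length, the order of kinesins changed between MII oocytes and 90-96hpi. In MII oocytes Kif23 led with 639 ± 35.5 CPM per kilobase, followed by Kif20a with 162 ± 9.88, Kif20b with 133 ± 7.82, and then Kif4 (61.3 ± 4.96) and Kif18a (57.1 ± 11.6), which lay within their spread of each other. At 30-36hpi Kif23 (112 ± 11.3), Kif22 (112 ± 5.17) and Kif20a (106 ± 10.0) shared the top and did not differ beyond their spread. At 48-54hpi Kif22 (172 ± 3.89) and Kif20a (166 ± 11.7), again within their spread, lay above Kif23 (106 ± 4.91). At 90-96hpi Kif20a led with 68.9 ± 5.62 CPM per kilobase, ahead of Kif23 with 47.3 ± 4.71, and the conventional kinesin Kif5b came next with 31.8 ± 2.45, level with Kif22 (29.7 ± 8.28) within the spread.

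From one group to the next, 0 to 24 of the 36 tested kinesins were called, the fewest into 6-12hpi and the most into 48-54hpi. From MII oocytes to 0-6hpi 3 members rose and 5 fell, where 12.9% of all genes rose and 8.28% fell (21.2% called). Into 6-12hpi edgeR's quasi-likelihood test called 0 members, where 4.73% of all genes rose and 2.93% fell (7.66% called). In that step 3 members had an unadjusted p below 0.05, and DESeq2 called 1 among 1751 genes. A fit of the 2 groups alone called 10 (2 higher, 8 lower) among 3787 genes. Into 12-18hpi 1 member rose and 8 fell, where 7.11% of all genes rose and 6.09% fell (13.2% called). Into 18-24hpi 5 rose and 9 fell, where 18.1% of all genes rose and 14.9% fell (33% called). The next steps had more members that rose than fell.

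Into 24-30hpi 9 members rose and 7 fell, where 21% of all genes rose and 24.4% fell (45.4% called). Into 30-36hpi 12 rose and 6 fell, where 21% of all genes rose and 29% fell (49.9% called). Into 48-54hpi 8 rose and 16 fell, where 28.7% of all genes rose and 33.3% fell (62% called). With total count scaling the members' split was 15 higher and 3 lower into 24-30hpi, and 4 higher and 19 lower into 48-54hpi. Under that scaling 69% of all genes called were higher into 24-30hpi, and 32.5% into 48-54hpi. Into 70-76hpi 1 rose and 17 fell, where 21.6% of all genes rose and 21.8% fell (43.4% called). The last step, into 90-96hpi, had 5 members higher and 6 lower, where 20.1% of all genes rose and 19.5% fell (39.6% called). From end to end, 9 members were higher and 20 lower at 90-96hpi than in MII oocytes, where 42.6% of all genes were higher and 38.4% lower (81% called). The total number of kinesins called was close to the background in most of these steps. No set test was run, so a split of directions that differs from that of all genes is given here as a count only.

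Several mitotic kinesins fell into 12-18hpi and 18-24hpi, most rose into 30-36hpi and most fell into 70-76hpi. Of the 12, all tested, 1 rose and 3 fell into 0-6hpi (12.9% and 8.28% of all genes). Into 6-12hpi 0 were called (7.66% of all genes), and 1 had an unadjusted p below 0.05. Over the alternative settings 0 were higher and 0 to 4 lower in that step, where 774 to 3787 of all genes were called. Into 12-18hpi 0 rose and 5 fell (7.11% and 6.09% of all genes), and into 18-24hpi 0 rose and 4 fell (18.1% and 14.9%). Into 24-30hpi 5 rose and 3 fell (21% and 24.4% of all genes). The 12 had a median log2 fold change of 0.60 in that step, against -0.12 over all genes. Into 30-36hpi 9 rose and 1 fell, with a median of 0.77 against -0.22 over all genes, of which 21% rose and 29% fell. Into 48-54hpi 3 rose and 6 fell (28.7% and 33.3% of all genes). Into 70-76hpi 0 rose and 9 fell (21.6% and 21.8%), with a median of -0.83 against 0 over all genes. With total count scaling the mitotic split was 8 higher and 2 lower into 24-30hpi, and 1 higher and 8 lower into 48-54hpi. Of all genes called under that scaling, 69% were higher into 24-30hpi and 32.5% into 48-54hpi. Over the alternative settings tried, 7 to 9 of the 12 rose into 30-36hpi and 9 fell into 70-76hpi.

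**Figure D2:**
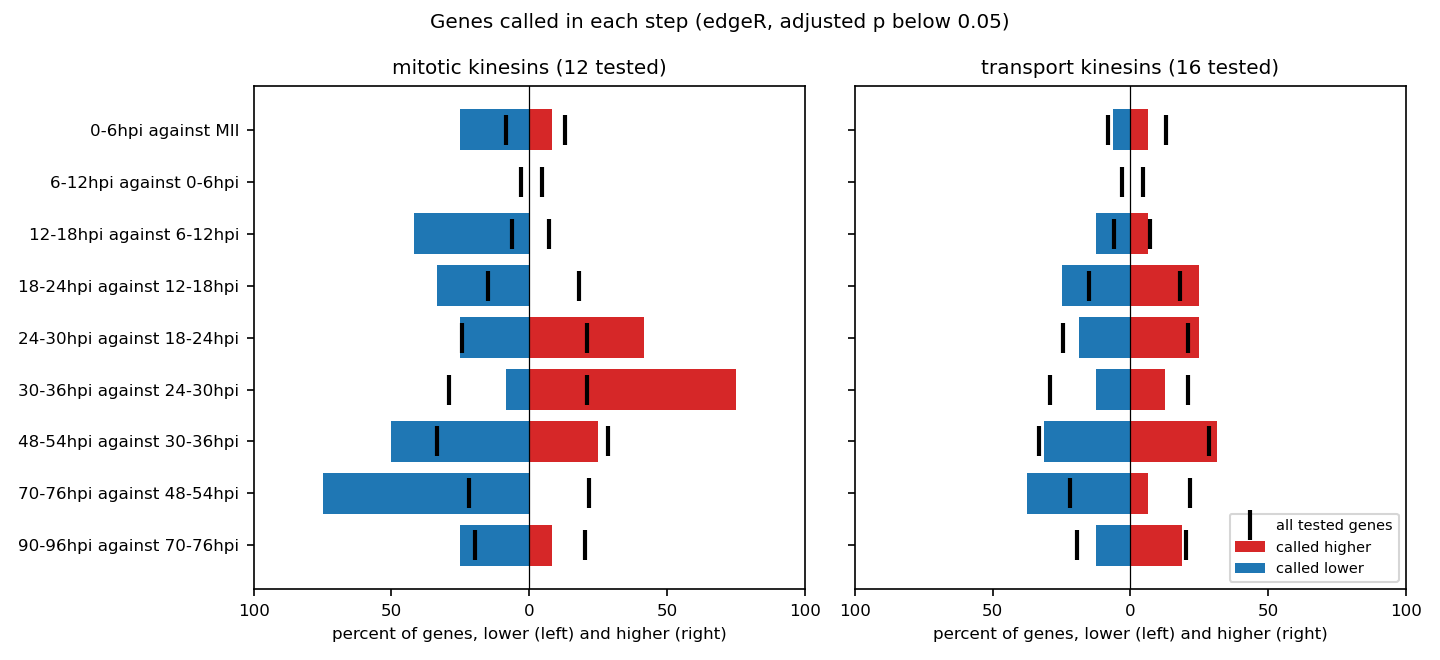
Percent of the 12 mitotic and 16 tested transport kinesins called lower (left) and higher (right) in each step between neighbouring groups; black ticks mark the percent of all genes tested. Mitotic kinesins stand past the ticks to the right into 30-36hpi (9 of 12) and to the left into 70-76hpi (9 of 12), while transport kinesins are split in most steps.

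Kif23, the motor subunit of centralspindlin that bundles midzone microtubules and is needed for cytokinesis, was the most abundant member in the oocyte. Its level was 2043, 2282 and 2188 CPM in the 3 MII libraries, 424, 435 and 588 at 18-24hpi, 243, 258 and 243 at 24-30hpi, 336, 392 and 410.4 at 30-36hpi and 144, 176 and 162 at 90-96hpi. Every MII library lay above every later one, the 24-30hpi libraries were the low point before 30-36hpi, and these neighbouring groups did not overlap. Kif23 fell already after fertilisation (0-6hpi against MII: log2 fold change -0.50 with SE 0.11, adjusted p = 0.00107), fell in each step from 12-18hpi to 24-30hpi, the last of them with a log2 fold change of -0.96 with SE 0.11 (adjusted p = 1.44e-08), and rose again into 30-36hpi (log2 fold change 0.61 with SE 0.11, adjusted p = 2.76e-05). From MII oocytes to 90-96hpi it fell by 3.76 on the log2 scale.

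The other kinesin-6 genes had courses of their own. Kif20a, which brings the chromosomal passenger complex to the midzone, was at 464, 431 and 438 CPM at 12-18hpi, 158, 142 and 137 at 18-24hpi and 545, 609 and 623 at 48-54hpi, against 579 ± 35.2 CPM (SD, n = 3) in MII oocytes. The 18-24hpi libraries were the lowest of the 30, and those of 48-54hpi lay around the mean of the oocyte. The fall into 18-24hpi (log2 fold change -1.61 with SE 0.12, adjusted p = 1.38e-12) was followed by called rises into 24-30hpi, 30-36hpi and 48-54hpi. The last of these (log2 fold change 0.65, adjusted p = 1.84e-05) did not pass with total count scaling (adjusted p = 0.228). Kif20b, which also acts in cytokinesis, was at 743 ± 43.5 CPM in MII oocytes, 193 ± 18.9 at 24-30hpi, 323 ± 10.3 at 30-36hpi and 116 ± 11 at 90-96hpi.

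Kif4, a chromokinesin that works with Prc1 at the midzone, was at 274 ± 14 CPM at 6-12hpi, 162 ± 28.6 at 12-18hpi, 235 ± 43.3 at 30-36hpi and 51.4 ± 15.1 at 70-76hpi. It fell into 12-18hpi (log2 fold change -0.76 with SE 0.16, adjusted p = 0.000858), rose into 30-36hpi and fell at both steps after that. Kif14, which acts at the midbody with citron kinase, was an exception at 30-36hpi. It was at 392, 391 and 398 CPM at 18-24hpi, 219, 197 and 167 at 24-30hpi, 66.7, 84 and 71.7 at 30-36hpi and 19.3, 12.3 and 15.7 at 70-76hpi. Its libraries were high and close together at 18-24hpi and lower in each of these later groups, with no overlap between them. It fell into 24-30hpi (log2 fold change -1.02 with SE 0.15, adjusted p = 1.1e-06) and into 30-36hpi (log2 fold change -1.39 with SE 0.16, adjusted p = 3.55e-09), and was the mitotic kinesin called lower in that step. Into 90-96hpi it rose (log2 fold change 1.15, adjusted p = 1.08e-06), the only called rise among the 12 there.

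Kif22, a chromokinesin that pushes chromosome arms from the poles, climbed over 4 successive groups. It was at 45.8, 46.6 and 26.6 CPM at 18-24hpi, 153, 109.6 and 129.9 at 24-30hpi, 395, 385 and 421 at 30-36hpi and 628, 601 and 620.4 at 48-54hpi. Each group lay wholly above the one before. It rose into 24-30hpi (log2 fold change 1.72 with SE 0.17, adjusted p = 2.29e-10) and into 30-36hpi (log2 fold change 1.61 with SE 0.16, adjusted p = 3.55e-10). The further rise into 48-54hpi (log2 fold change 0.62, adjusted p = 0.00086) was not called under total count scaling (adjusted p = 0.425). Kif22 then fell at both later steps, to 235 ± 19.7 and 106 ± 29.7 CPM, the latter close to the 104 ± 11.3 CPM of MII oocytes.

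Kif11, the kinesin-5 that pushes spindle poles apart, was at 74.4, 77.2 and 67.9 CPM at 18-24hpi, 119, 125 and 116 at 24-30hpi, 256, 310.2 and 283 at 30-36hpi and 142, 138 and 146 at 48-54hpi. The 30-36hpi libraries stood above all others, and the neighbours on either side did not reach them. It rose into 24-30hpi (log2 fold change 0.71 with SE 0.13, adjusted p = 1.9e-05) and into 30-36hpi (log2 fold change 1.24 with SE 0.13, adjusted p = 4.57e-10). Kif2c, which removes tubulin at kinetochores, rose and fell at the same steps: it was at 38.1 ± 8.24 CPM at 18-24hpi, 88.5 ± 13.2 at 24-30hpi, 202 ± 15.5 at 30-36hpi and 89.1 ± 19.2 at 48-54hpi. Its earlier fall into 12-18hpi was called as well (log2 fold change -1.03 with SE 0.16, adjusted p = 2.44e-05).

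**Figure D3:**
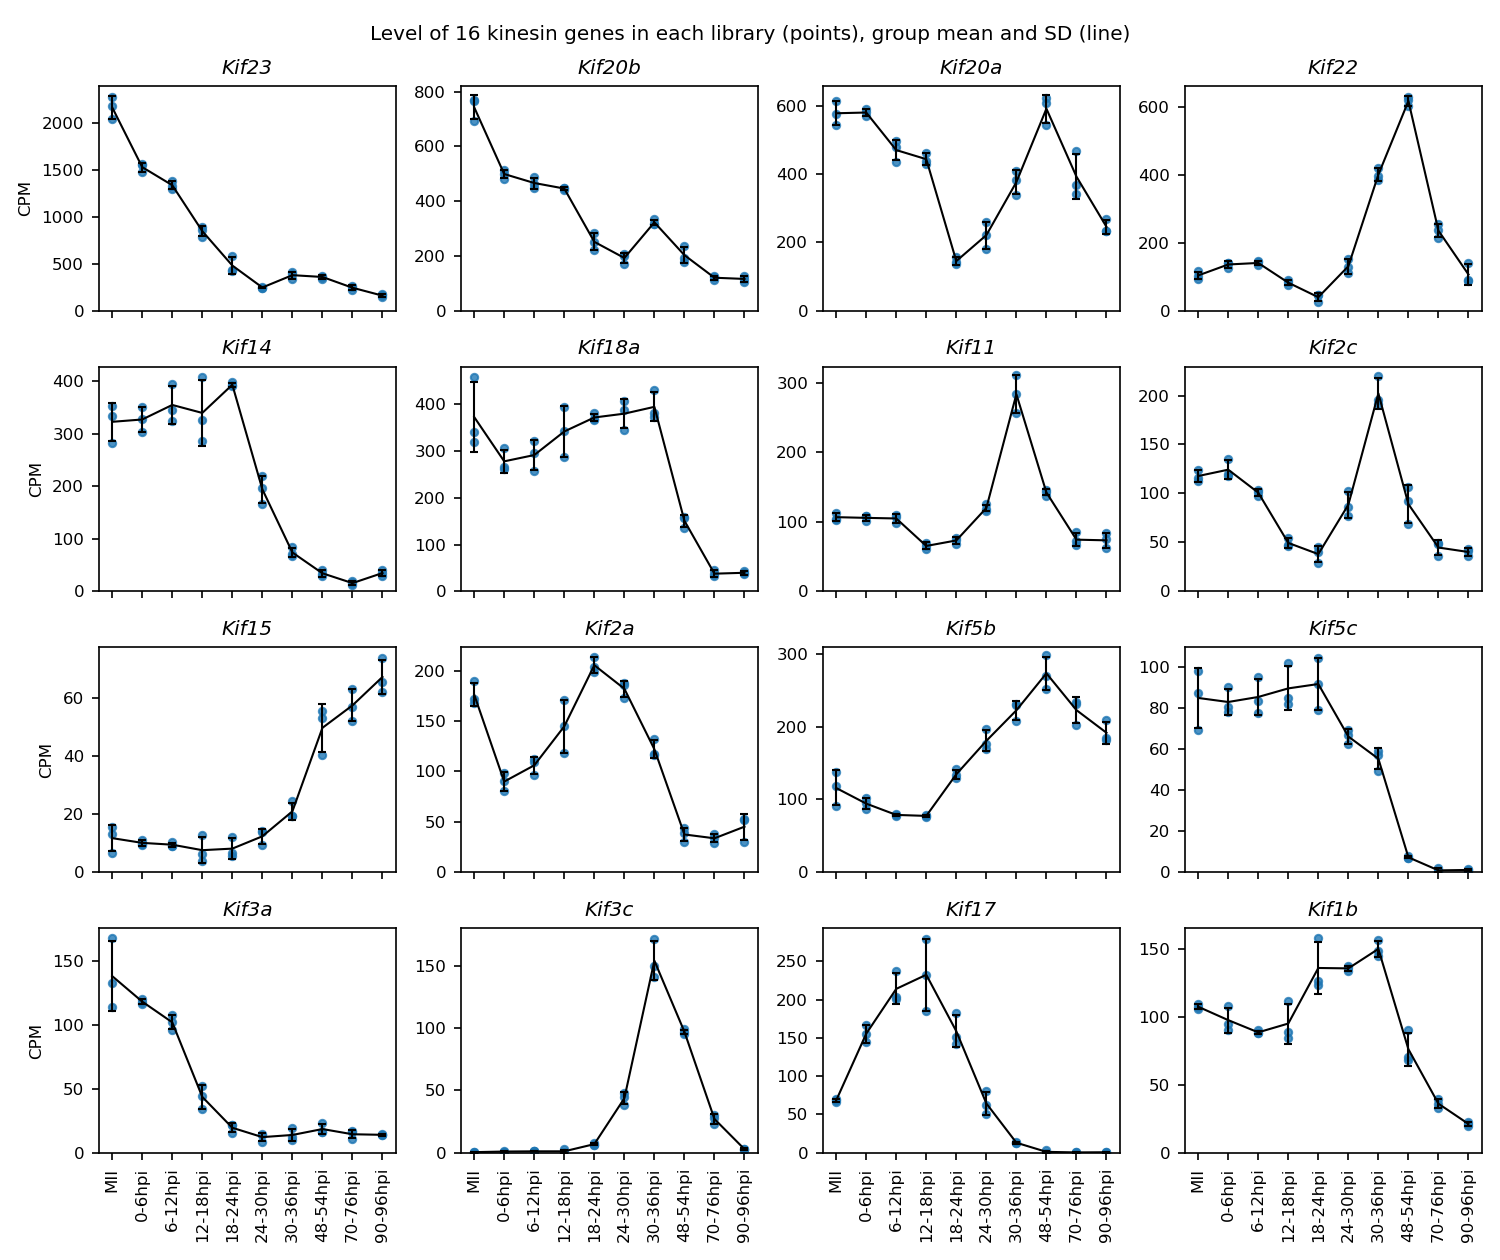
CPM of 16 kinesin genes in each of the 30 libraries (points, linear axes from 0), with lines through the group means and bars for the SD of the 3 libraries. Kif23 is highest in MII oocytes, Kif22 and Kif3c are highest at 48-54hpi and 30-36hpi, and Kif17 is highest at 12-18hpi and near 0 from 48-54hpi on.

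Kif18a, which limits the length of kinetochore microtubules, had group means between 277 CPM, at 0-6hpi, and 394, at 30-36hpi, in the first 7 groups. It was then at 159, 136 and 157 CPM at 48-54hpi and 31.8, 45.4 and 36.1 at 70-76hpi. Both groups lay below all earlier libraries and apart from each other. The falls into 48-54hpi (log2 fold change -1.39 with SE 0.14, adjusted p = 1.17e-10) and 70-76hpi (log2 fold change -1.99 with SE 0.15, adjusted p = 1.8e-13) were called, and from 18-24hpi to 30-36hpi no step was. Its small fall from MII oocytes to 0-6hpi (adjusted p = 0.0234) was lost under total count scaling and without MII replicate 3, 0-6hpi replicate 1 or 0-6hpi replicate 3 (adjusted p from 0.0882 to 0.232).

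Some mitotic kinesins were low in the oocyte and higher at the end. Kif15, which helps to keep the spindle bipolar beside Kif11, was at 6.69, 15.4 and 13 CPM in MII oocytes, 19.2, 19.2 and 24.5 at 30-36hpi and 62.3, 73.9 and 65.7 at 90-96hpi. The 90-96hpi libraries were above all MII libraries (90-96hpi against MII: log2 fold change 2.52 with SE 0.31, adjusted p = 2.86e-09). Kif18b, which acts on astral microtubules, had 0.942 ± 0.15 CPM in MII oocytes, 3.14 ± 3.14 at 18-24hpi, 15.7 ± 1.38 at 24-30hpi and 32.2 ± 1.97 at 30-36hpi. Its rise into 24-30hpi was called (log2 fold change 2.32 with SE 0.40, adjusted p = 1.24e-05). Kifc1, the minus-end-directed kinesin-14 that focuses spindle poles, stayed low, at 5.27 CPM in its highest group and 0.365 in its lowest. Kif15 and Kif18b were the mitotic kinesins called higher at 90-96hpi than in MII oocytes, beside 8 called lower. Of all genes 42.6% were higher and 38.4% lower.

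The transport kinesins had called members in both directions in most steps. Of 16 tested, 4 rose and 4 fell into 18-24hpi (18.1% and 14.9% of all genes), and 4 rose and 3 fell into 24-30hpi (21% and 24.4%). Into 30-36hpi 2 rose and 2 fell (21% and 29% of all genes), and into 48-54hpi 5 rose and 5 fell (28.7% and 33.3%). With total count scaling these splits were 7 higher and 1 lower into 24-30hpi and 3 higher and 6 lower into 48-54hpi. Of all genes called under that scaling, 69% were higher into 24-30hpi and 32.5% into 48-54hpi. Into 70-76hpi 1 rose and 6 fell (21.6% and 21.8% of all genes), with a median log2 fold change of -0.70 against 0 over all genes. From MII oocytes to 90-96hpi 7 rose and 8 fell (42.6% and 38.4% of all genes).

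Among the conventional kinesin-1 heavy chains, Kif5b was present throughout and was higher late, and Kif5c fell to a low level. Kif5b, the broadly expressed chain, was at 75.4, 79.1 and 77.3 CPM at 12-18hpi, 141, 134 and 129 at 18-24hpi and 252, 298 and 269.8 at 48-54hpi. The groups rose without overlap, and the step into 18-24hpi had a log2 fold change of 0.80 with SE 0.13 (adjusted p = 4.09e-06). Kif5c, known best from neurons, was at 104, 79.1 and 91.8 CPM at 18-24hpi, 59.1, 57.2 and 49.5 at 30-36hpi, 6.93, 6.98 and 7.7 at 48-54hpi and 0.214, 0.373 and 1.91 at 70-76hpi. All libraries of the first 7 groups lay above all of the last 3. It fell into 48-54hpi (log2 fold change -2.94 with SE 0.24, adjusted p = 1.06e-12) and further into 70-76hpi (log2 fold change -3.12 with SE 0.35, adjusted p = 4.68e-09). Kif5a, the third chain, had 0 reads in MII oocytes and 0-6hpi, 78 reads over the 3 libraries of 24-30hpi and 23 at 90-96hpi, which is too few for a fold.

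The kinesin-2 genes followed different courses. Kif3a, the motor subunit shared by the heterotrimeric kinesin-2 complexes, was at 133, 168 and 114 CPM in MII oocytes, 107, 103 and 96.3 at 6-12hpi, 52.4, 34 and 44.8 at 12-18hpi and 13.7, 14.4 and 8.65 at 24-30hpi. It lay lower in each of these later groups and did not return, with 14.1 ± 0.611 CPM at 90-96hpi. Its fall into 12-18hpi (log2 fold change -1.22 with SE 0.22, adjusted p = 0.000116) and the next one into 18-24hpi were called. The smaller one into 24-30hpi (adjusted p = 0.0168) did not pass with total count scaling (adjusted p = 0.371), in a fit of the 2 groups alone, and without 18-24hpi replicate 1, 18-24hpi replicate 3 or 24-30hpi replicate 3. Kif3b, the usual partner of Kif3a, was at 20.3 ± 1.15 CPM in MII oocytes and 3.76 ± 1.46 at 48-54hpi.

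Kif3c, the alternative partner of Kif3a, was nearly absent from the oocyte and came up in a pulse. Its level was 0.602, 0.119 and 2.84 CPM at 12-18hpi, 6.63, 7.84 and 6.38 at 18-24hpi, 38.5, 47.8 and 44.8 at 24-30hpi, 141, 172 and 149.7 at 30-36hpi, 95.6, 96.6 and 99.1 at 48-54hpi, 23.2, 30.3 and 27.9 at 70-76hpi and 1.99, 3.25 and 3.42 at 90-96hpi. No library of one of these groups overlapped with its neighbour, on the way up or down. The rise into 24-30hpi had a log2 fold change of 2.65 with SE 0.32 (adjusted p = 1.85e-08). The rise into 30-36hpi had a log2 fold change of 1.82 with SE 0.29 (adjusted p = 2.61e-06). The falls into 70-76hpi (log2 fold change -1.84, adjusted p = 3.01e-06) and 90-96hpi (log2 fold change -3.23 with SE 0.35, adjusted p = 2.62e-09) were called too. Over the groups its mean ranged from 0.511 CPM in MII oocytes to 154 at 30-36hpi, a ratio of 302.

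Kif17, the homodimeric kinesin-2, was high early. It was at 66.1, 70.0 and 68.7 CPM in MII oocytes, 144, 167 and 154 at 0-6hpi, 233, 185 and 279 at 12-18hpi, 51, 80.0 and 62.2 at 24-30hpi, 12.2, 14.3 and 13 at 30-36hpi and 0.321, 0.56 and 0.636 at 70-76hpi. All 0-6hpi libraries lay above the MII libraries, and all 30-36hpi libraries lay below those of 24-30hpi. The rise after fertilisation (0-6hpi against MII: log2 fold change 1.19 with SE 0.29, adjusted p = 0.00319) was called, as were the falls into 24-30hpi (log2 fold change -1.30), 30-36hpi (log2 fold change -2.29 with SE 0.31, adjusted p = 8.04e-07) and 48-54hpi (log2 fold change -3.51 with SE 0.45, adjusted p = 1.31e-07). At 30-36hpi, where Kif3c had its highest mean, Kif17 was at 13.1 ± 1.07 CPM, against 232 ± 46.9 at 12-18hpi.

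Kinesin-3 motors carry vesicles and organelles. Kif1b, which moves mitochondria and precursors of synaptic vesicles, was at 89, 112 and 84.8 CPM at 12-18hpi, 127, 159 and 123 at 18-24hpi, 145, 157 and 149 at 30-36hpi and 21.2, 19.7 and 22.9 at 90-96hpi. Its 12-18hpi libraries lay below those of 18-24hpi (log2 fold change 0.52, adjusted p = 0.00314), and it fell in each step after 30-36hpi. Kif16b, which moves early endosomes, had the smallest ratio between groups of the 36 tested members, between 21.4 and 52.9 CPM, a ratio of 2.47. Kif13b, which moves membrane cargo, was at 36.3 ± 2.63 CPM at 6-12hpi and 14 ± 4.7 at 12-18hpi (log2 fold change -1.37 with SE 0.27, adjusted p = 0.000397). Kif1c and Kif13a, both low, had their highest means at 90-96hpi, 7.23 ± 0.757 and 9.65 ± 0.985 CPM.

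Of the other transport members, Kif21b, a motor that slows microtubule growth, was at 0.731 ± 0.363 CPM at 30-36hpi and 11.5 ± 2.46 at 90-96hpi, its highest group. Its rise between MII oocytes and 90-96hpi (adjusted p = 0.011) was lost without 90-96hpi replicate 2 (adjusted p = 0.0502). Its relative Kif21a was highest at 12-18hpi, with 21.7 ± 4.05 CPM. Kifc3, a minus-end-directed kinesin of epithelial junctions, was lowest at 18-24hpi (1.81 ± 1.26 CPM) and highest at 48-54hpi (26 ± 6.78 CPM). Kifc2, a neuronal minus-end-directed kinesin, had 2 reads over the 3 MII libraries and 151 over those of 30-36hpi. Kif1bp, whose product binds the motors Kif1b and Kif1c, was highest at 30-36hpi with 38.8 ± 2.1 CPM.

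In the cilium and centriole list 5 of 8 members were tested. The list's counts per step were small, at most 3 of 5 lower, into 48-54hpi, where 33.3% of all genes were lower. The list's median log2 fold change in that step was -1.71 against -0.19 over all genes. Kif2a, a depolymerase of centrosomal and spindle microtubules, was at 172, 168 and 189.8 CPM in MII oocytes, 90.0, 80.8 and 98.9 at 0-6hpi, 204, 199 and 214 at 18-24hpi and 38.8, 30.0 and 43.4 at 48-54hpi. It was low at 0-6hpi, highest at 18-24hpi and lowest from 48-54hpi on. Its fall after fertilisation (0-6hpi against MII: log2 fold change -0.97 with SE 0.16, adjusted p = 2.37e-05) and its fall into 48-54hpi (log2 fold change -1.71 with SE 0.17, adjusted p = 6.6e-11) were called. The call on the rise into 18-24hpi (adjusted p = 0.0134) was lost without 12-18hpi replicate 3 (adjusted p = 0.106), and that on the rise into 90-96hpi, where libraries overlapped, in 9 of 12 alternatives.

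Kif24, which restrains cilium formation at the mother centriole, was at 73.4 ± 7.7 CPM at 0-6hpi, 21.7 ± 6.05 at 30-36hpi and 5.86 ± 0.85 at 48-54hpi (log2 fold change -1.89 with SE 0.22, adjusted p = 4.73e-09). Kif9, a kinesin of motile cilia, was at 19.6 ± 1.7 CPM at 12-18hpi, 10.2 ± 1.11 at 70-76hpi and 1.61 ± 1.46 at 90-96hpi (log2 fold change -2.66 with SE 0.46, adjusted p = 1.72e-05). Kif6, its relative, had 0 reads over the MII libraries, 84 over those of 30-36hpi and 0 over those of 90-96hpi. The remaining low members were Kif26b, a kinesin-11, with 53 reads at 24-30hpi and 0 at 90-96hpi, and Kif28, with 2.78 ± 0.836 CPM at its highest, at 24-30hpi.

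The proteins that work with mitotic kinesins on the spindle also changed in both directions. Of 24 spindle and midzone partners, all tested, 3 rose and 12 fell into 18-24hpi (18.1% and 14.9% of all genes). Into 30-36hpi 13 rose and 7 fell (21% and 29% of all genes), and into 70-76hpi 4 rose and 13 fell (21.6% and 21.8%). Their median log2 fold change into 30-36hpi was 0.53, against -0.22 over all genes. Prc1, which crosslinks midzone microtubules with Kif4, was at 1408 ± 49.9 CPM in MII oocytes, 472 ± 36.5 at 24-30hpi, 800.2 ± 78.6 at 30-36hpi and 203 ± 20.2 at 90-96hpi. Cenpe, the kinetochore kinesin that the symbol rule leaves out, was at 1673 ± 108 CPM in MII oocytes, 304 ± 54.2 at 24-30hpi, 860.3 ± 43.2 at 48-54hpi and 211 ± 44.5 at 70-76hpi. Tacc3 and Ckap5, which stabilise spindle microtubules together, had their lowest means at 18-24hpi (93.2 CPM) and 70-76hpi (68.9 CPM). Hmmr, a spindle pole protein, had its lowest at 0-6hpi (17.5 CPM) and its highest at 90-96hpi (251 CPM).

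Adaptors link kinesins to their cargo. Of 15 tested, 7 were higher and 6 lower at 90-96hpi than in MII oocytes, shares near the 42.6% and 38.4% of all genes, with a median log2 fold change of 1.98 against 0.27 over all genes. Rab6a, the Golgi GTPase bound by Kif20a, was highest at 18-24hpi with 389 ± 44.3 CPM. Sybu, the syntabulin adaptor of kinesin-1, was at 29.4 ± 4.25 CPM in MII oocytes and 0.0933 ± 0.162 at 70-76hpi, and Kidins220, a membrane protein that binds kinesin-1, at 127 ± 17.6 and 20.4 ± 2.89. Spag9, a JNK scaffold carried by kinesin-1, went the other way, from 1.23 ± 0.646 CPM at 6-12hpi to 62.6 ± 11.2 at 70-76hpi. Of 26 genes of cytoplasmic dynein, the motor of the opposite direction, and its dynactin partners, 12 were higher and 8 lower at 90-96hpi than in MII oocytes, against the same shares of all genes. Among them the light chains Dynll1 and Dynlrb1 had 418 ± 32.3 and 385 ± 8.91 CPM at 90-96hpi, and the intermediate chain Dync1i2 was highest at 12-18hpi with 1079 ± 78.6 CPM. Hook1, a dynein adaptor, was highest at 18-24hpi with 238 ± 25.7 CPM and at 2.64 ± 1.5 at 70-76hpi.

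Klf17, the targeted gene, did not set the libraries labelled KO apart. It was at 596, 746 and 805 CPM in the ctrl libraries, 603, 673 and 728 in the libraries labelled KO, 359, 794 and 845 in those labelled mKO and 812 and 1015 in those labelled pKO. All 3 libraries labelled KO lay within the range of ctrl (log2 fold change -0.10, adjusted p = 0.869). Which part of the gene was deleted is not given in the sources used here, and counts over the whole gene may not show it. In what follows KO stands for the libraries labelled KO, and directions are between labels. The mitochondrial share of reads was 3.23 to 4.18% in ctrl, 5.92 to 11.4% in KO, 4.19 to 5.82% in mKO and 3.73 to 5.63% in pKO. The summed level of the 6 oocyte markers, all with reads in each group, was 1559.8 to 2137 CPM in ctrl, 2671 to 3177 in KO, 1978 to 2906 in mKO and 1697 to 1753 in pKO. Both measures were higher in KO than in ctrl without overlap, and their part in the results was not tested.

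In the libraries labelled KO 4 of 37 tested kinesins were lower than in ctrl and 0 were higher, where 8.13% of all genes were called, 6.31% lower and 1.82% higher. The 4 were Kif3c, Kif20a, Kif2c and Kif22. Kif3c, the alternative kinesin-2 partner, was at 97.6, 123 and 112 CPM in ctrl, 22.6, 16.6 and 28.8 in KO, 33.5, 61 and 31.8 in mKO and 120.5 and 132 in pKO. The KO libraries were the lowest of all, the mKO libraries lay between, and pKO lay with ctrl. KO against ctrl had a log2 fold change of -2.29 with SE 0.33 (adjusted p = 0.00661). Kif20a, the midzone motor, was at 383, 416 and 352 CPM in ctrl, 143, 114 and 108 in KO, 167, 389 and 213 in mKO and 393 and 587 in pKO (log2 fold change -1.66 with SE 0.31, adjusted p = 0.00965 for KO against ctrl). Here too every KO library was below every other library, and 1 of the 3 mKO libraries lay in the range of ctrl.

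Kif2c, the kinetochore depolymerase, was at 217, 187 and 215 CPM in ctrl, 65, 46.8 and 75 in KO, 78.5, 219 and 139 in mKO and 189.9 and 305 in pKO (log2 fold change -1.73 with SE 0.35, adjusted p = 0.0118 for KO against ctrl). Kif22, the chromokinesin, was at 274, 567 and 461 CPM in ctrl, 126, 117 and 139 in KO, 118, 517 and 190.4 in mKO and 341 and 565 in pKO (log2 fold change -1.77 with SE 0.43, adjusted p = 0.0223 for KO against ctrl). The KO libraries of Kif2c were below all others, while for Kif22 mKO replicate 1 was as low as the KO libraries. In both genes mKO replicate 2 was at the level of ctrl. Without KO replicate 2 none of the 4 was called (adjusted p = 0.054 for Kif3c, 0.0648 for Kif20a, 0.0754 for Kif2c and 0.11 for Kif22), and Kif22 was also lost without ctrl replicate 2, ctrl replicate 3, KO replicate 1 or KO replicate 3. With mitochondrial genes left out, the same 4 genes were called.

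**Figure D4:**
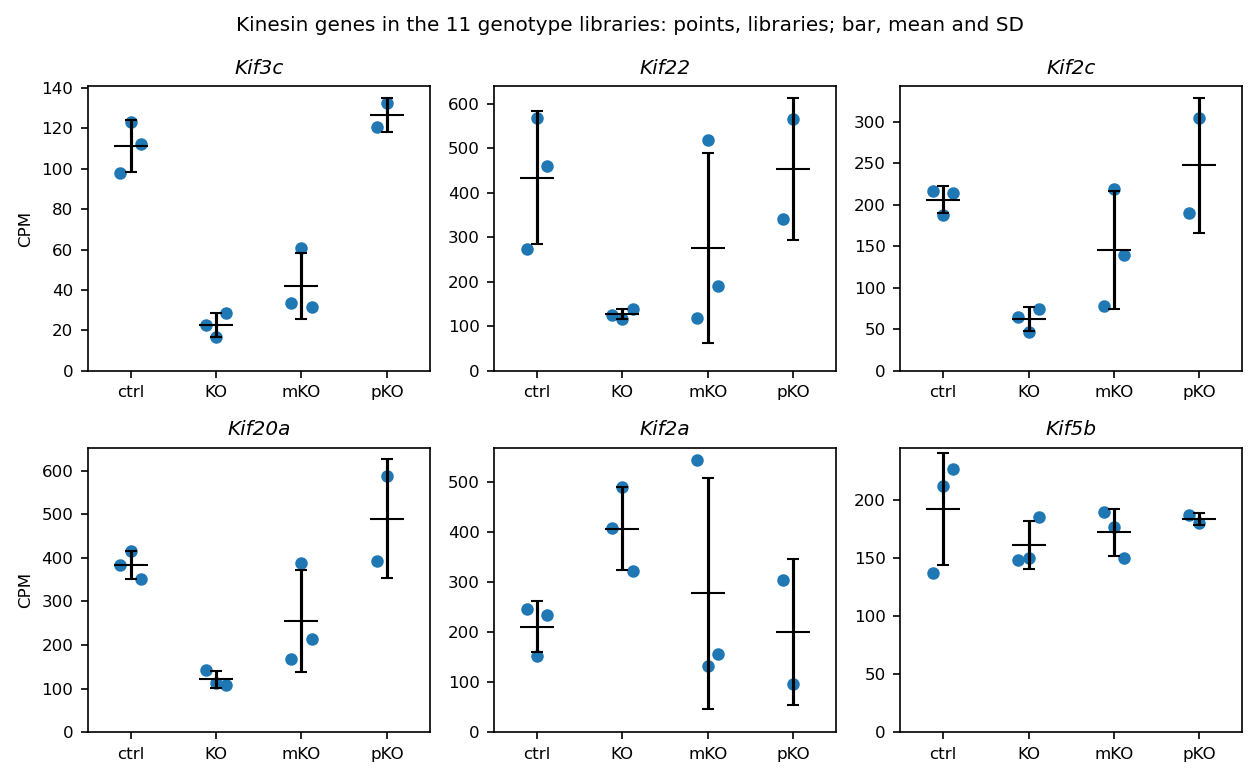
CPM of 6 kinesin genes in each of the 11 genotype libraries (points, linear axes from 0) with the mean and SD of each group (bars; ctrl, KO and mKO have 3 libraries, pKO has 2). For Kif3c, Kif2c and Kif20a the 3 KO libraries lie below all others, and neither Kif2a nor Kif5b was called in KO against ctrl.

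The 12 mitotic kinesins had 0 members higher and 3 lower in KO than in ctrl, where 1.82% of all genes were higher and 6.31% lower. The median log2 fold change of the 12 was -0.76 against 0.05 over all genes. Their summed level was 2187 to 2613 CPM in ctrl, 1204 to 1493 in KO, 1467 to 2413 in mKO and 2389 to 2760.3 in pKO, so the KO libraries stood below those of ctrl. Mitotic members that edgeR did not call in the fit of all 11 libraries included Kif23 (log2 fold change -0.85, adjusted p = 0.0651), Kif4 (-0.82, adjusted p = 0.0677) and Kif11 (-0.63, adjusted p = 0.15). All 3 were called lower in a fit of the 2 groups alone, and Kif23 also by the DESeq2 test and with the replicate number as a block. Of 17 transport kinesins, 0 were higher and 1, Kif3c, lower. Their sum was 608 to 779 CPM in ctrl and 659.9 to 781 in KO, which overlap. Of 5 tested cilium and centriole kinesins 0 were called by edgeR in the fit of all 11 libraries, 0 had an unadjusted p below 0.05, and DESeq2 called none of them. The list's sum was 198 to 286 CPM in ctrl and 371 to 523 in KO, without overlap, and 172 to 574 in mKO. Kif2a made up most of that sum. Kif2a, the centrosomal depolymerase in that list, was at 246, 152 and 234 CPM in ctrl and 407, 489 and 322 in KO (log2 fold change 0.95, adjusted p = 0.215), and was called higher with no filter on low counts and in the fit of the 2 groups alone. Its level in mKO replicate 1 was above that of any KO library. Kif17 had a log2 fold change of 0.77 (adjusted p = 0.151).

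In the maternal and paternal KO edgeR's quasi-likelihood test called no kinesin against ctrl, and 0% of all genes in both comparisons. Over all genes 1243 had an unadjusted p below 0.05 in mKO and 476 in pKO, and DESeq2 called 32 and 2. These comparisons and that of KO share the ctrl libraries. In mKO 1 kinesin, Kif3c, had an unadjusted p below 0.05 (log2 fold change -1.40, adjusted p = 0.616), and DESeq2 called it. It was also called without mKO replicate 2, the library that lay with ctrl for Kif20a, Kif2c and Kif22. In pKO 1 kinesin, Kif13a, had an unadjusted p below 0.05 (log2 fold change -2.37, adjusted p = 1), and DESeq2 called 0. For Kif3c the log2 fold change against ctrl was -2.29 in KO, -1.40 in mKO and 0.19 in pKO, and for Kif20a it was -1.66, -0.58 and 0.35. The 4 genotypes together differed by the F test for 3 of 37 kinesins, Kif3c, Kif20a and Kif2c, where 4.61% of all genes were called.

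**Figure D5:**
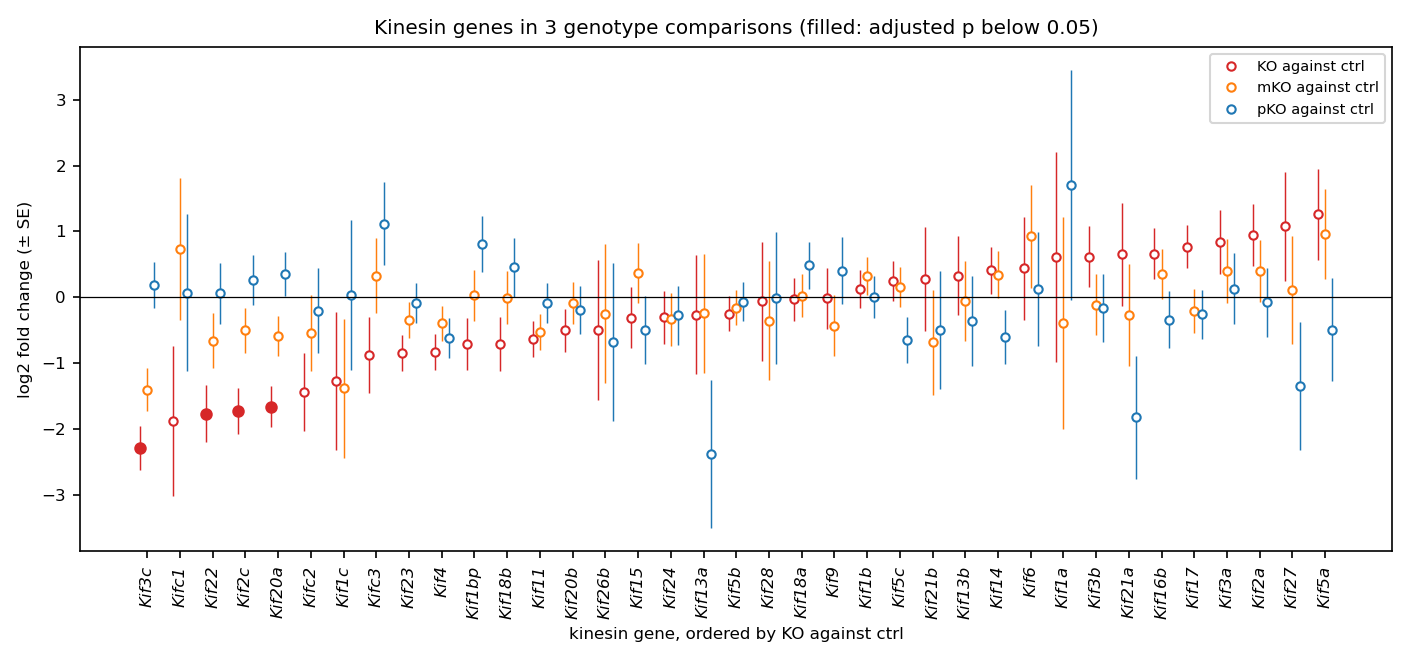
Log2 fold change and SE of the 37 tested kinesin genes in KO, mKO and pKO against the same ctrl libraries, ordered by KO; filled points have an adjusted p below 0.05. The filled points are Kif3c, Kif20a, Kif2c and Kif22 in KO, and none is filled in mKO or pKO.

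The mutants were also set against each other, in comparisons added after the data were seen. Between KO and mKO 0 kinesins and 0% of genes were called by edgeR, 6 kinesins and 2220 genes had an unadjusted p below 0.05, and DESeq2 called 1 kinesin, Kif2c, among 336 genes. Without mKO replicate 1, 4 kinesins were called, and with no filter on low counts 3 were. The number of all genes called under these settings is not given here, so no share stands beside these counts. Between KO and pKO 6 kinesins were lower in KO and 0 higher, where 9.67% of all genes were lower and 2.83% higher (12.5% called). They were Kif3c (log2 fold change -2.48, adjusted p = 0.00364), Kif20a (-2.01, adjusted p = 0.00408), Kif2c (-1.99, adjusted p = 0.005), Kif22 (-1.83, adjusted p = 0.0183), Kif1bp (-1.52, adjusted p = 0.0299) and Kifc3 (-1.99, adjusted p = 0.0481). The pKO group had 2 libraries, and without pKO replicate 2 only Kif20a and Kif3c were called. Leaving out any 1 KO library left 3.

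Some partner genes were lower in KO as well. Of 24 spindle and midzone partners 0 were higher and 7 lower in KO than in ctrl, where 6.31% of all genes were lower, with a median log2 fold change of -0.60 against 0.05 over all genes. Over the alternatives 0 to 10 of the 24 were lower. The count was 0 without KO replicate 2, ctrl replicate 2 or ctrl replicate 3, 1 without KO replicate 1 or KO replicate 3, and 3 without ctrl replicate 1. Of 16 tested cargo adaptors and 26 dynein and dynactin genes 0 were called by edgeR in either list, and 0 and 5 had an unadjusted p below 0.05. DESeq2 called 0 of the adaptors and 2 of the dynein and dynactin genes, both higher. In the windows after fertilisation the 4 kinesins lower in KO had called rises into 24-30hpi and 30-36hpi: Kif3c, Kif20a, Kif2c and Kif22 each rose in both steps. Of all genes 21% rose into 24-30hpi and 21% into 30-36hpi. How many of all genes, or of those lower in KO, rose in both steps was not counted, and a link was not tested. Kif11, Kif5b and Kif18b also rose in both steps, and edgeR did not call them in KO against ctrl in the fit of all 11 libraries. Kif11 was called there in the fit of the 2 groups alone.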

How the data were processed

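Polyadenylated RNA was measured in 41 of the 61 labelled samples; 14 accessibility and 6 embryo-number samples were not analysed here. The authors deposited read counts per gene, not normalized, per the file headers. As deposited by the authors, the column of 90-96hpi replicate 3 held 1 fraction, in a damaged last record, and was treated as estimated counts: its values were rounded to whole numbers and that record was left out. Trim Galore 0.6.10, STAR 2.7.10a, SAMtools 1.12 and the build mm10 (GRCm38) are named in the submitters' processing notes; the counting tool, its strand setting and any split by T-to-C change are not given in the sources used here. Column names gave each library's sample.

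Per table, genes passed edgeR's filter (minimum count 10, total count 15), were scaled by TMM and fitted by group with edgeR's quasi-likelihood model (robust, no covariate), with all 30 or all 11 libraries in one fit. Tests were two-sided, with Benjamini-Hochberg adjustment over all genes tested and a threshold of 0.05. SE was computed as the absolute log2 fold change over the square root of its F statistic. CPM used TMM-scaled library sizes, and levels per kilobase used the deposited gene lengths. Tests ran in R 4.3.3 with edgeR 4.0.16, limma 3.58.1 and DESeq2 1.42.0, figures in matplotlib 3.10.9 under Python 3.11.15 with pandas 2.3.3 (numpy 2.4.6), and the fit was checked on simulated counts. Replicates of a group correlated at 0.976 to 0.993 (windows) and 0.913 to 0.980 (genotypes) on the log2 scale and differed by more than sampling noise. Totals per library, given with the results, limit what can be said of genes with few reads.

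The members and gene lists were chosen with earlier results of these data known. The rule named called members whose higher group averaged 10 CPM or more, up to 5 per direction and step and up to 10 per genotype comparison, beside members of small subfamilies; from each partner list up to 4 genes with the smallest adjusted p over the 10 groups, and Cenpe. Other members described were chosen after their values were seen. Lists held mitotic (12), transport (17) and cilium and centriole kinesins (8), spindle and midzone partners (24), cargo adaptors (18), and dynein and dynactin (27). Of the cell type markers, the blastocyst list summed to 5139 to 8687 CPM at 90-96hpi, the list of the 2-cell stage to 1391 to 1685 CPM at 18-24hpi, and the sperm and spermatid list to 188 to 230 CPM in MII oocytes. Alternatives were DESeq2 (its size factors, and its test), total count scaling, no filter, a fit of the 2 groups alone, the replicate number as a block, a fold minimum, a stricter threshold and leaving out each library; thinning to 1 depth, leaving out mitochondrial genes and the comparisons of KO with mKO and pKO were added after the data were seen.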

Additional observations from a re-analysis of the deposited data

How the results depend on the processing

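Of 80 pairs of a named kinesin and a comparison, 60 kept their call under every other scaling, filter, tool, fit and left-out library run, 20 lost it under at least 1 and 0 changed direction; the fold minimum is not part of this tally. With an absolute log2 fold change of at least 1 required, the count of kinesins called was 2 into 0-6hpi, 4 into 12-18hpi, 7 into 18-24hpi, 8 into 24-30hpi, 11 into 30-36hpi, 15 into 48-54hpi, 8 into 70-76hpi and 7 into 90-96hpi, fewer by construction. Into 6-12hpi the DESeq2 test called 1 and a fit of the 2 groups alone 10 (2 higher, 8 lower), against 0. Over all genes the DESeq2 test called 1751 and the fit of the 2 groups alone 3787 of 16234, against 1243. Over the 4 genotypes, against 3, no low-count filter gave 7, the DESeq2 test 5 and an adjusted p below 0.01 gave 0. For KO against ctrl the fit of the 2 groups alone gave 8 (1 higher, 7 lower), against 4. For mKO against ctrl the DESeq2 test gave 1, against 0. For KO against mKO no low-count filter gave 3 and the DESeq2 test 1, against 0. For KO against pKO the DESeq2 test gave 12 (6 higher, 6 lower), against 6. For the other comparisons and the fold minimum, the number of all genes called is not given beside these counts. Those counts therefore show only how the calls move with the setting. The cause of these differences was not tested. Leaving out 1 library at a time gave 35 to 36 kinesins over the 10 groups, 6 to 8 into 0-6hpi, 0 to 0 into 6-12hpi, 7 to 8 into 12-18hpi, 11 to 15 into 18-24hpi, 12 to 16 into 24-30hpi, 14 to 18 into 30-36hpi, 21 to 25 into 48-54hpi, 15 to 18 into 70-76hpi, 9 to 12 into 90-96hpi, 28 to 29 from MII oocytes to 90-96hpi, 0 to 6 over the genotypes, 0 to 4 for KO, 0 to 1 for mKO and 0 to 0 for pKO against ctrl, 0 to 4 for KO against mKO and 2 to 6 for KO against pKO. Over the genotypes the count was 0 without KO replicate 1, KO replicate 2 or KO replicate 3, 6 without mKO replicate 1 and 5 without mKO replicate 2. Deviations of same-numbered libraries correlated at -0.0719 to 0.164 in the windows (4 of 135 pairs above 0.1) and at -0.0504 to 0.322 in the genotypes (6 of 15 above 0.1, median 0.0864 against -0.0471 for different numbers). Not every pair passed 0.1, and the main fits used no block. That bar cannot exclude that same-numbered genotype libraries share a batch or collection, and the labels do not say. With the replicate number as a block the counts were 35, 8, 0, 8, 14, 15, 17, 24, 18, 10 and 29 in the order given for the windows, 4 over the genotypes, 5 for KO, 0 for mKO, 0 for pKO, 0 for KO against mKO and 7 for KO against pKO; over all genes the block moved the calls from 770 to 1584 over the genotypes and from 1358 to 2064 for KO against ctrl. Total count scaling moved the share of higher calls among all genes from 60.9% to 78.3% into 0-6hpi, 53.8% to 43.5% into 12-18hpi, 46.3% to 69% into 24-30hpi, 46.2% to 32.5% into 48-54hpi, 49.8% to 61.7% into 70-76hpi and 22.6% to 33.3% for KO against pKO, and DESeq2's size factors moved it to 49.4% into 0-6hpi. It shifted the median log2 fold change of all genes from -0.12 to 0.28 into 24-30hpi, from -0.19 to -0.66 into 48-54hpi and from 0.27 to 0.79 from MII oocytes to 90-96hpi. At these depths means under about 1 CPM rest on few reads. Folds against such means are uncertain in size, such as those given for Kif3c over MII oocytes, Kif5c into 70-76hpi and Kif13a in pKO.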
